A study of Mus musculus with 9 samples.

Results

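The matrix metalloproteases and their inhibitors were followed through primary mouse microglia by the deposited values of 10 genes, chosen by symbol: the secreted proteases Mmp3, Mmp13, Mmp12, Mmp2 and Mmp9, the membrane-bound protease Mmp14, the inhibitors Timp1, Timp2 and Timp3, and Adam8, a membrane protease of the related ADAM family. All 10 had a row of their own among the 21212 rows of the table. The study compared M1-skewed microglia given 100 ng/ml LPS, M2a-skewed microglia given 20 ng/ml IL-4 and resting microglia given an equal volume of PBS, each for 4 h and each on 3 Affymetrix Mouse Exon 1.0 ST arrays. The cells came from wild-type CD-1 mouse pups of the first days of life (P0-P1), were grown with 10 ng/ml each of M-CSF and GM-CSF for 5 to 7 days according to the labels, and spent the night before stimulation without serum. M-CSF, GM-CSF and serum starvation were thus common to the LPS, IL-4 and PBS cells. The labels say only that the brains came from a pooled litter and do not say whether replicates were separate preparations, so p-values reflect only how far these arrays differ from each other, and that spread may be technical. Values are log2 expression values, on which a difference of 1 is a doubling.

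Matrix metalloproteases are zinc enzymes that cut extracellular matrix, cytokines and cell surface proteins, and most are made as inactive proenzymes. Tissue inhibitors of metalloproteases (TIMPs) bind the active enzymes, and TIMP-2 also takes part in the activation of pro-MMP-2 by MMP-14 at the cell surface. In the brain these enzymes are known for opening the blood-brain barrier and for remodelling matrix after injury, and microglia are one of their sources.

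The sequences upstream of the genes with the largest changes are given first, together with a neighbour that had a similar element and little change. RefSeq promoter windows (GRCm38.p6) were found for 8 of the 10 genes, with 9 windows in all, and were read over the 250 bases before each annotated start. In the lines below the capitals mark a match to the AP-1 element (TGANTCA, which reads the same on both strands), the site of Fos and Jun dimers. For Mmp13 (chr9:7272264-7272513, plus strand) the match began 35 bases before the start, for Mmp3 (chr9:7445572-7445821, plus strand) 46 bases, and for the later of the windows of Mmp12 (chr9:7347124-7347373, plus strand) 44 bases. The window of Timp1 (chrX:20869916-20870165, plus strand) held none.
Mmp13: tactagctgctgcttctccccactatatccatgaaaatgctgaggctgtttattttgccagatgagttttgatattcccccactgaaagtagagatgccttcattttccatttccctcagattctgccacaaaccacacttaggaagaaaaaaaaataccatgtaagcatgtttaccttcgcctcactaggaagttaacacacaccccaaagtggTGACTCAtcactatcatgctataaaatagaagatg
Mmp3: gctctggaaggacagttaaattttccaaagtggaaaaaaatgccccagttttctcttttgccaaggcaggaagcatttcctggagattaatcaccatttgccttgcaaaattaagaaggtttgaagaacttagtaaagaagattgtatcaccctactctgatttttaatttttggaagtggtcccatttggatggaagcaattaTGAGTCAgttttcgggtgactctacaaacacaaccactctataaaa
Mmp12: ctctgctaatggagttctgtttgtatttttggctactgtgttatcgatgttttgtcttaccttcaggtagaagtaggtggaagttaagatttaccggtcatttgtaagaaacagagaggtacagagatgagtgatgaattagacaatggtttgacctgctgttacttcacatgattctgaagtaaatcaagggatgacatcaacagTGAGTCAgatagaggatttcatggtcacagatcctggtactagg
Timp1: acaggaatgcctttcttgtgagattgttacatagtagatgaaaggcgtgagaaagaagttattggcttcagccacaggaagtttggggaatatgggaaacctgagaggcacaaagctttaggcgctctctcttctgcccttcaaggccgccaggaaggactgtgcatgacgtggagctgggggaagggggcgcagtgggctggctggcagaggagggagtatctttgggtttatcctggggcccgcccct

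Among the 8 genes with a window, the AP-1 letters stood in those of 3 genes, Mmp3, Mmp12 and Mmp13, and the other window of Mmp12 held none. Of all 32851 windows in the table, 6.75% held the element. A TATA box (TATAAA on either strand) stood in the windows of Mmp3 and Mmp13 alone of the 8 genes, 7 and 16 bases before the start, and in 12.4% of all windows. An Ets element (AGGAAG on either strand), found in 29.5% of all windows, stood in those of Mmp3, Mmp13, Mmp14, Timp1 and Timp3 and in the earlier window of Mmp12. These matches describe letters in a window and not binding.

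Across the 10 genes, LPS gave the widest spread of changes. Collagenase-3 (Mmp13), TIMP-1 (Timp1), stromelysin-1 (Mmp3) and MT1-MMP (Mmp14) rose with LPS, by 17.5-fold, 7.47-fold, 5.70-fold and 2.16-fold relative to PBS, and Adam8, Timp3 and Timp2 fell. With IL-4, Timp1, Mmp13 and gelatinase A (Mmp2) rose, by 2.22-fold, 1.81-fold and 1.68-fold. Gelatinase B (Mmp9) was split by replicate: on replicate 3 of LPS and of PBS it stood far above the other replicates of the same condition. Macrophage elastase (Mmp12) stayed within a range of 0.22 on the log2 scale over all 9 arrays.

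**Figure D1:**
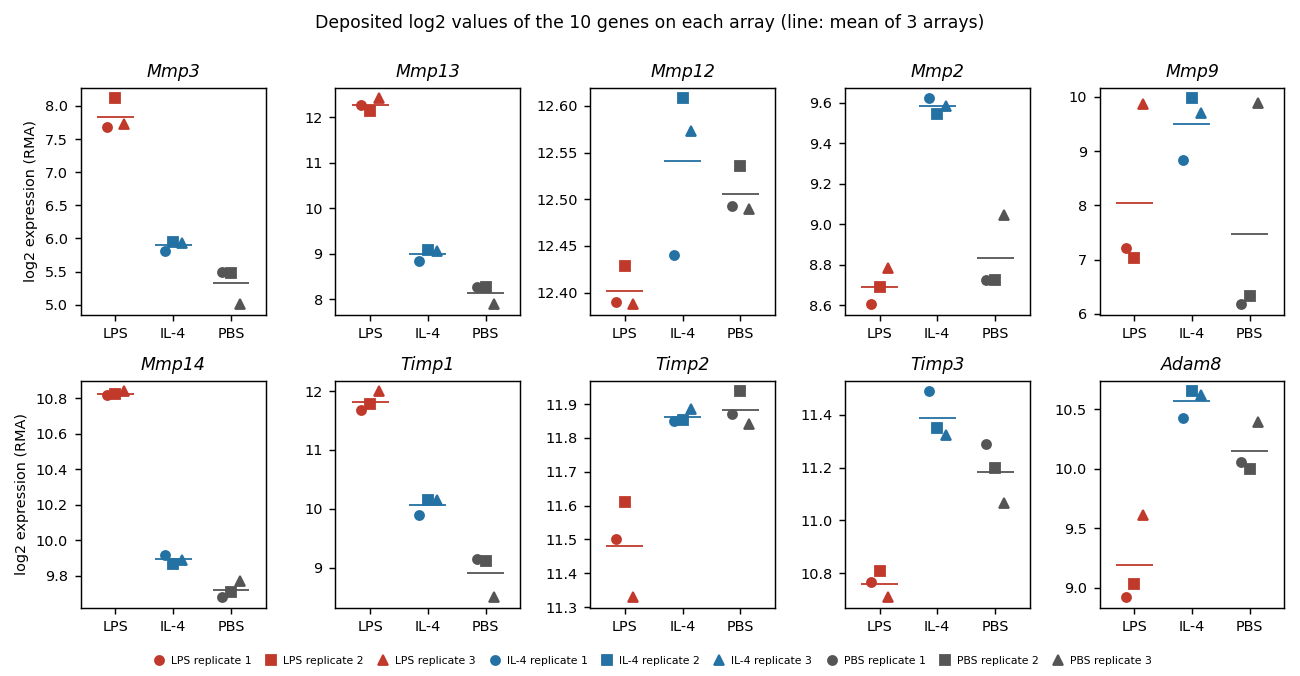
Log2 expression of the 10 genes on each of the 9 arrays, one panel per gene with its own vertical range, by condition (LPS, IL-4, PBS) with the marker shape giving the replicate number and the line the mean of 3 arrays. Mmp3, Mmp13, Mmp14 and Timp1 were highest on all 3 LPS arrays, Mmp2 was highest on all 3 IL-4 arrays, and Mmp9 was high on LPS replicate 3 and PBS replicate 3 and low on the other LPS and PBS arrays.

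Replicate 3 of LPS and of PBS stood apart from the other arrays over the whole table. In 2.05% of all rows LPS replicate 3 differed by more than 1 from the mean of replicates 1 and 2, as did PBS replicate 3 in 2.38% and IL-4 replicate 3 in 0.0330%. Genes of ciliated ependymal cells were higher on both, with 19 of 19 measured genes above both other replicates in LPS and in PBS and median differences of 1.58 and 1.79. Microglial markers were measured for 16 of 17 genes, of which 14 lay outside the dim rows (the 7071 rows with the lowest means over the 9 arrays), among them Csf1r, Itgam, C1qb and Trem2. With LPS relative to PBS, over all arrays, 9 of the 16 fell and none rose, against 22.4% and 15.4% of all rows. In PBS 16 of 16 were higher on replicate 3 than on both other replicates. Results that rest on these arrays are therefore given with and without LPS replicate 3 and PBS replicate 3.

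Between LPS and PBS, 4 of the 10 genes rose and 3 fell at an adjusted p under 0.05 (limma, with the Benjamini-Hochberg adjustment over 21212 rows), against 15.4% of all rows that rose and 22.4% that fell. None of the 10 genes lay among the dim rows. In a fit without the dim rows 7 of the 10 passed, where 53.8% of the rows left did in either direction. The median difference was 0.23 over the 10 genes and 0.01 over all rows. The arrays measure RNA of whole cultures, so that fewer cells of a type and less RNA per cell cannot be told apart.

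Mmp13, a collagenase that cleaves fibrillar collagen, had 12.26, 12.13 and 12.42 on the LPS arrays, 8.83, 9.09 and 9.06 on the IL-4 arrays and 8.27, 8.27 and 7.88 on the PBS arrays. The LPS arrays lay far above the rest and the IL-4 arrays lay wholly above the PBS arrays. LPS minus PBS was 4.13 ± 0.13 (SE, n = 3 arrays per condition, adjusted p = 7.36e-08), IL-4 minus PBS 0.85 ± 0.13 (adjusted p = 0.00709) and LPS minus IL-4 3.28 ± 0.13 (adjusted p = 2.56e-07).

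Mmp3, which cleaves proteoglycans and activates other proenzymes, had 7.68, 8.11 and 7.73 with LPS, 5.81, 5.95 and 5.93 with IL-4 and 5.50, 5.48 and 5.00 with PBS. The order of the conditions was that of Mmp13, with no overlap between any of them. The increase with LPS was 2.51 ± 0.16 over PBS (adjusted p = 4.42e-06) and 1.94 ± 0.16 over IL-4 (adjusted p = 2.00e-05). IL-4 minus PBS was 0.57 ± 0.16, which missed the threshold (adjusted p = 0.0781, 95% interval 0.21 to 0.92).

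Mmp14, the membrane-type protease that activates pro-MMP-2, was the most even of the genes that rose, with 10.82, 10.82 and 10.84 on LPS arrays, 9.92, 9.87 and 9.89 on IL-4 arrays and 9.68, 9.71 and 9.77 on PBS arrays. All LPS arrays were above all others, and the IL-4 arrays stood just above the PBS arrays. LPS raised it by 1.11 ± 0.05 over PBS (adjusted p = 3.84e-07) and by 0.93 ± 0.05 over IL-4 (adjusted p = 1.03e-06), whereas IL-4 minus PBS was 0.17 ± 0.05 (adjusted p = 0.0675).

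Timp1, the inducible inhibitor of the family, moved in the same direction as these proteases. It read 11.68, 11.79 and 11.99 with LPS, 9.90, 10.14 and 10.16 with IL-4 and 9.14, 9.11 and 8.50 with PBS. No condition overlapped another, and PBS replicate 3 was the lowest of the 9 arrays. LPS minus PBS was 2.90 ± 0.17 (adjusted p = 3.60e-06), IL-4 minus PBS 1.15 ± 0.17 (adjusted p = 0.00776) and LPS minus IL-4 1.75 ± 0.17 (adjusted p = 7.09e-05).

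The other inhibitors went down with LPS. Timp2, usually made at a steady level in tissues, had 11.50, 11.61 and 11.33 on LPS arrays, 11.85, 11.85 and 11.89 on IL-4 arrays and 11.87, 11.94 and 11.84 on PBS arrays. The LPS arrays were the 3 lowest, while IL-4 and PBS arrays overlapped. Timp2 fell by 0.40 ± 0.07 with LPS relative to PBS (adjusted p = 0.00231), and LPS minus IL-4 was -0.38 ± 0.07 (adjusted p = 0.00278). Its difference between IL-4 and PBS was -0.02 ± 0.07 (adjusted p = 0.898, 95% interval -0.19 to 0.15), and its sign turned when the values were quantile normalized (0.0180).

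Timp3, the inhibitor that binds to the matrix and also blocks ADAM17, had 10.77, 10.81 and 10.71 with LPS, 11.49, 11.35 and 11.32 with IL-4 and 11.29, 11.20 and 11.07 with PBS. The LPS arrays were again the lowest, and the IL-4 arrays lay above the PBS arrays by a narrow margin. With LPS it fell by 0.42 ± 0.07 relative to PBS (adjusted p = 0.00176), and LPS minus IL-4 was -0.63 ± 0.07 (adjusted p = 1.75e-04). IL-4 minus PBS was 0.20 ± 0.07 and missed the threshold (adjusted p = 0.162). When each array's median was subtracted, the falls of Timp2 and Timp3 with LPS were smaller, at -0.29 (adjusted p = 0.0257) and -0.31 (adjusted p = 0.0154).

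Adam8, a protease of the leukocyte surface that sheds adhesion molecules, had 8.92, 9.03 and 9.61 on LPS arrays, 10.43, 10.65 and 10.62 on IL-4 arrays and 10.05, 10.00 and 10.40 on PBS arrays. The 3 conditions did not overlap, with LPS lowest and IL-4 highest, and replicate 3 was the highest array of both LPS and PBS. LPS minus PBS was -0.96 ± 0.18 (adjusted p = 0.00316) and LPS minus IL-4 -1.38 ± 0.18 (adjusted p = 3.81e-04), while IL-4 minus PBS was 0.42 ± 0.18 (adjusted p = 0.239). By the methods' t-test the fall with LPS relative to PBS missed the threshold (adjusted p = 0.0647). Without LPS replicate 3 and PBS replicate 3 it was -1.05 ± 0.08 (adjusted p = 4.30e-05).

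**Figure D2:**
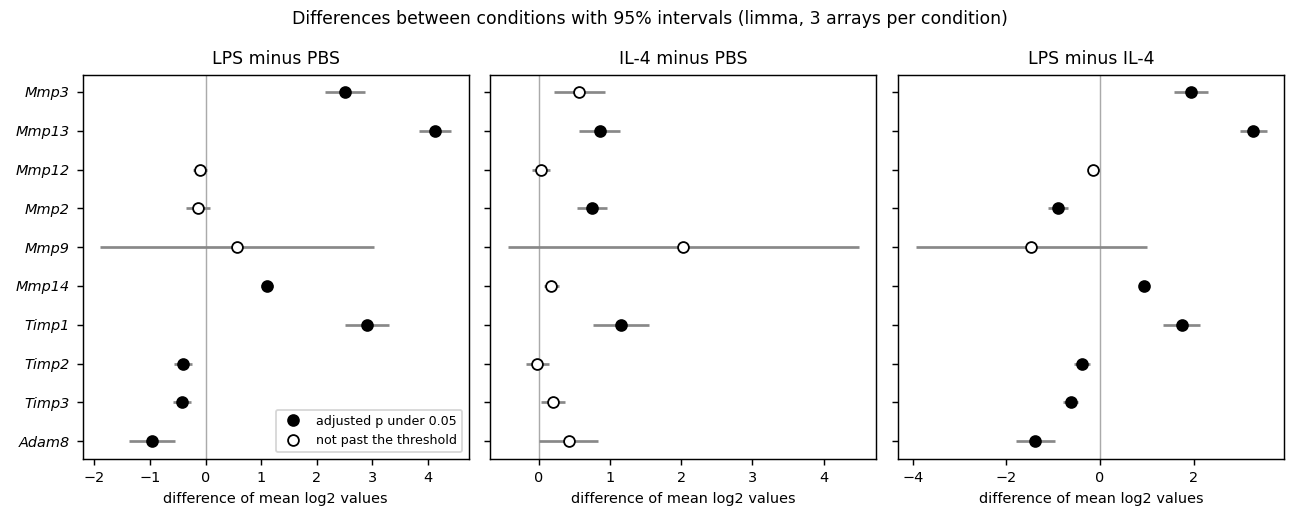
Differences of mean log2 values for LPS minus PBS, IL-4 minus PBS and LPS minus IL-4 (horizontal axis) for the 10 genes, with 95% intervals from limma and 3 arrays per condition. Filled points passed an adjusted p of 0.05, and the widest interval is that of Mmp9, from -1.90 to 3.03 for LPS minus PBS.

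Between IL-4 and PBS, 3 of the 10 genes rose and none fell, against 3.35% of all rows that rose and 2.05% that fell. Without the dim rows 4 of the 10 passed, where 9.51% of the rows left did in either direction. The median difference was 0.49 over the 10 genes and -0.02 over all rows. Beside the 3 that passed, Mmp3, Mmp14, Timp3 and Adam8 were higher with IL-4 at an unadjusted p under 0.05 (limma) and missed the adjusted threshold. The share of all rows at that unadjusted threshold was not taken, so these genes are not set against the whole table. This comparison uses the same PBS arrays as that of LPS with PBS.

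Mmp2, a gelatinase that cleaves denatured collagen and basement membrane, was the gene whose highest condition was IL-4 with a clear gap. It had 8.60, 8.69 and 8.78 on LPS arrays, 9.62, 9.54 and 9.58 on IL-4 arrays and 8.73, 8.72 and 9.05 on PBS arrays. The IL-4 arrays stood above all others, and the LPS and PBS arrays overlapped. IL-4 minus PBS was 0.75 ± 0.09 (adjusted p = 0.00291) and LPS minus IL-4 -0.89 ± 0.09 (adjusted p = 9.43e-05). Between LPS and PBS the difference was -0.14 ± 0.09 (adjusted p = 0.274, 95% interval -0.35 to 0.07).

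Markers of fibroblasts and meninges also differed between IL-4 and PBS. Of 16 listed genes 15 were measured, and 6 of these rose with IL-4 and none fell, against 3.35% and 2.05% of all rows. The 6 were Igf2 (1.64), Dcn (1.21), Lum (1.14), Postn (0.75), Ogn (0.45) and Col3a1 (0.41). The median level of the list lay between 8.46 and 8.67 on IL-4 arrays, between 8.10 and 8.43 on LPS arrays and between 7.84 and 8.28 on PBS arrays. The lowest PBS value was that of replicate 3. The other 9 were not called, Col1a1 (0.06) among them, and the lowest difference of the list was -0.20. Of the 15 genes 2 (Slc47a1 and Fap) were among the dim rows. The part of these cells in the values of Mmp2 was not tested.

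The 3 rises with IL-4 depended on the test. By the methods' t-test none of the 10 genes passed after adjustment, and the adjusted p was 0.0603 for Mmp2, 0.0829 for Mmp13 and 0.0983 for Timp1. With the replicate number as a block within the 6 IL-4 and PBS arrays none passed either, where 1.35% of all rows did. Same-numbered IL-4 and PBS arrays did not all deviate together, so that block rests on no shown pairing. With LPS replicate 3 and PBS replicate 3 left out, 7 passed, where 30.1% of all rows passed in either direction.

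Between LPS and IL-4, 4 of the 10 genes were higher with LPS (Mmp3, Mmp13, Mmp14 and Timp1) and 4 were lower (Mmp2, Timp2, Timp3 and Adam8), against 21.0% and 25.9% of all rows. Without the dim rows 8 of the 10 passed, where 59.8% of the rows left did in either direction. The median difference was -0.26 over the 10 genes and 0.03 over all rows.

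Mmp12, an elastase of macrophages, was even across the conditions. It read 12.39, 12.43 and 12.39 with LPS, 12.44, 12.61 and 12.57 with IL-4 and 12.49, 12.54 and 12.49 with PBS, where the highest value of the table was 13.06. The LPS arrays were the 3 lowest by a small margin, and IL-4 and PBS arrays overlapped. No comparison passed, with LPS minus PBS at -0.10 ± 0.05 (adjusted p = 0.178, 95% interval -0.23 to 0.02), IL-4 minus PBS at 0.03 ± 0.05 (adjusted p = 0.756) and LPS minus IL-4 at -0.14 ± 0.05 (adjusted p = 0.0677), and all 3 changed sign when each array's median was subtracted. Of the alternatives, the methods' t-test called it lower with LPS than with PBS (adjusted p = 0.0313), and an eBayes trend, array weights, quantile normalization and leaving out IL-4 replicate 1 each called it lower with LPS than with IL-4 (adjusted p = 0.0198 to 0.0320).

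Mmp9, a gelatinase that is made by activated macrophages and stored by neutrophils, had 7.21, 7.03 and 9.87 on the LPS arrays, 8.83, 9.97 and 9.70 on the IL-4 arrays and 6.18, 6.34 and 9.89 on the PBS arrays. Replicate 3 exceeded the mean of replicates 1 and 2 by 2.75 in LPS and by 3.63 in PBS, and by 0.31 in IL-4. LPS replicate 3 and PBS replicate 3 were as high as the IL-4 arrays, so that all conditions overlapped. Relative to PBS, LPS gave 0.57 ± 1.08 (adjusted p = 0.720) and IL-4 gave 2.03 ± 1.08 (adjusted p = 0.329, 95% interval -0.43 to 4.50), and LPS minus IL-4 was -1.47 ± 1.08 (adjusted p = 0.283). LPS minus PBS within one replicate number was 1.03 for replicate 1, 0.69 for replicate 2 and -0.03 for replicate 3. With the replicate number as a block within the 6 LPS and PBS arrays, LPS minus PBS was 0.57 ± 0.20. It missed the threshold there too (limma, adjusted p = 0.0685).

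Without these arrays Mmp9 was 3.24 ± 0.30 higher with IL-4 than with PBS (adjusted p = 3.59e-04), a 9.46-fold difference, and 2.38 lower with LPS than with IL-4 (difference -2.38 ± 0.30, adjusted p = 3.77e-04). LPS minus PBS was then 0.86 ± 0.33 and missed the threshold (adjusted p = 0.0691). The 2 LPS and 2 PBS arrays left in that fit were assumed to vary like the IL-4 arrays. Against PBS replicate 3 alone, the mean of the IL-4 arrays was -0.39.

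**Figure D3:**
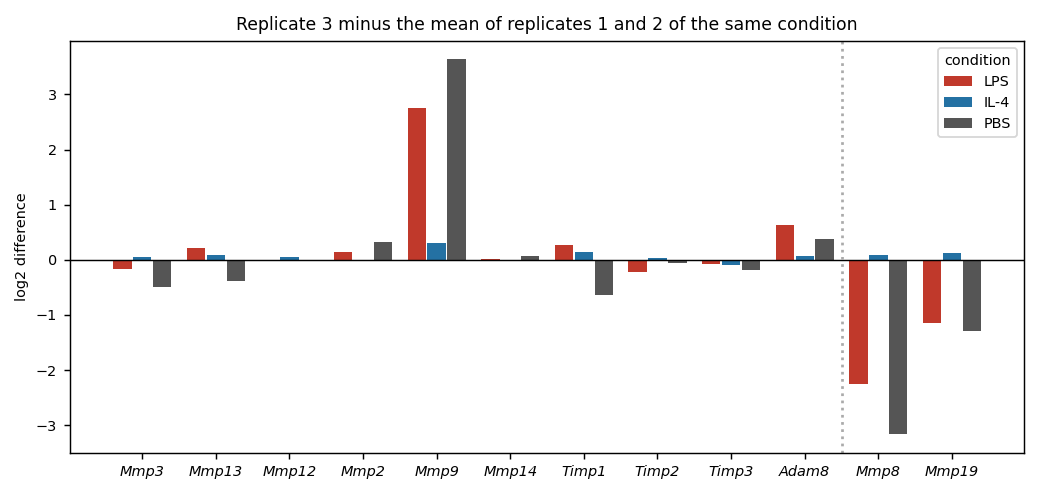
Log2 value of replicate 3 minus the mean of replicates 1 and 2 of the same condition (vertical axis) for the 10 genes and, right of the dotted line, Mmp8 and Mmp19, with a bar each for LPS, IL-4 and PBS. Mmp9 was higher on replicate 3 by 2.75 in LPS and 3.63 in PBS, and Mmp8 was lower by 2.25 and 3.16.

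Collagenase-2 (Mmp8), a protease first known from neutrophils, ran opposite to Mmp9 on these arrays. It had 9.75, 10.14 and 7.70 on LPS arrays, 8.41, 7.56 and 8.08 on IL-4 arrays and 10.28, 10.22 and 7.09 on PBS arrays. Replicate 3 lay below the mean of replicates 1 and 2 by 2.25 in LPS and by 3.16 in PBS, down to the level of the IL-4 arrays or under it. With all arrays Mmp8 missed the threshold in every comparison, at -0.00 ± 0.91 for LPS minus PBS and -1.18 ± 0.91 for IL-4 minus PBS. Without LPS replicate 3 and PBS replicate 3 it fell by 2.24 ± 0.23 with IL-4 relative to PBS (adjusted p = 5.75e-04), and LPS minus PBS was -0.31 ± 0.26 (adjusted p = 0.371).

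Mmp19, another secreted protease, was likewise low on replicate 3. It had 8.81, 9.17 and 7.85 with LPS, 9.61, 9.59 and 9.73 with IL-4 and 10.11, 10.08 and 8.80 with PBS. The difference between LPS and PBS was -1.05 ± 0.41 with all arrays and no block (adjusted p = 0.0750), and Mmp19 passed as lower with LPS when the replicate number was a block, over all 9 arrays (adjusted p = 0.0266) or within the 6 arrays of LPS and PBS (adjusted p = 5.95e-04). It was -1.10 ± 0.11 without LPS replicate 3 and PBS replicate 3 (adjusted p = 1.55e-04). Mmp16, a membrane-type protease, was high where Mmp8 was low, with 7.64, 7.54 and 8.30 on LPS arrays, 8.20, 8.31 and 8.44 on IL-4 arrays and 7.50, 7.60 and 8.55 on PBS arrays.

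The markers of other cells gave the following values beside Mmp9 and Mmp8. The median level of 19 ciliated ependymal genes was 7.28, 7.03 and 8.23 on LPS arrays, 8.63, 8.72 and 8.76 on IL-4 arrays and 7.58, 7.54 and 9.07 on PBS arrays, low and high on the same arrays as Mmp9. Replicate 3 was also higher in the median of 11 oligodendrocyte lineage genes (by 0.79 in LPS and 0.43 in PBS) and of 12 astrocyte genes (by 0.53 and 0.63), and in PBS 16 of 16 microglial genes were above both other replicates. The median of 15 neutrophil genes, Mmp8 and Lcn2 among them, lay between 5.48 and 5.75 on every array, and 11 of the 15 were among the dim rows. Ly6g and Ngp had means of 3.28 to 3.35 and 4.08 to 4.20 in the 3 conditions. Others of the list moved. With LPS relative to PBS 3 rose and 1 fell, against 15.4% and 22.4% of all rows. With IL-4 relative to PBS 1 rose and 1 fell, against 3.35% and 2.05%, with differences from -1.18 to 2.68. The part of these cells in the values of Mmp9 and Mmp8 was not tested.

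For the other genes replicate 3 mattered less. Adam8 was higher on it by 0.64 in LPS and 0.37 in PBS, Timp1 was higher by 0.27 in LPS and lower by 0.63 in PBS, and Mmp12 and Mmp14 differed by less than 0.1 in every condition. Without LPS replicate 3 and PBS replicate 3, LPS against PBS gave 4 rises and 3 falls among the 10 genes, in the genes named above, where 47.4% of all rows passed in either direction. Relative to PBS, Mmp13, Timp1, Mmp3 and Mmp14 were then 15.2-fold, 6.08-fold, 5.29-fold and 2.19-fold higher with LPS. The rises of Mmp2, Mmp13 and Timp1 with IL-4 were then 0.86, 0.72 and 0.94. In the same fit IL-4 against PBS added Mmp3 (0.41 ± 0.12, adjusted p = 0.0404), Mmp14 (0.20 ± 0.04, adjusted p = 0.00996), Adam8 (0.54 ± 0.08, adjusted p = 0.00200) and Mmp9 to the rises of Mmp2, Mmp13 and Timp1. LPS against IL-4 gave 4 rises and 5 falls, Mmp9 being the added fall, where 62.1% of all rows passed.

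**Figure D4:**
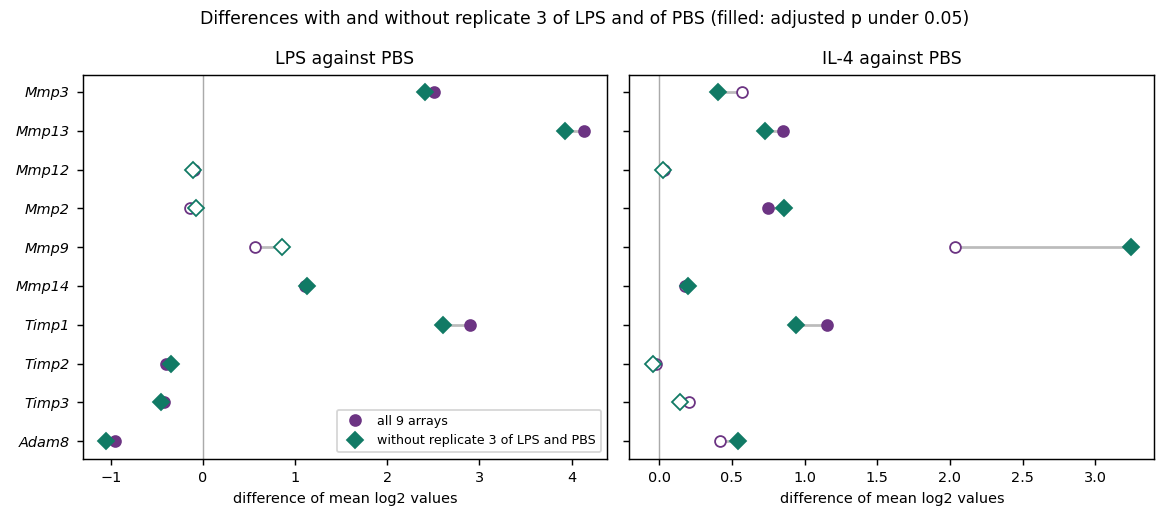
Differences of mean log2 values (horizontal axis) of the 10 genes for LPS against PBS and IL-4 against PBS, with all 9 arrays (circles) and without replicate 3 of LPS and of PBS (diamonds), filled where the adjusted p was under 0.05. The largest shift is that of Mmp9 for IL-4 against PBS, at 3.24 without these arrays and 2.03 with all.

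Mmp13, Mmp12 and Mmp3 lie in a cluster of 10 metalloprotease genes on chromosome 9, of which 9 had a row. In the order of the chromosome, LPS minus PBS was 4.13 for Mmp13, -0.10 for Mmp12, 0.27 for Mmp1b, 2.51 for Mmp3, 0.20 for Mmp1a, 0.66 for Mmp10, -0.00 for Mmp8, 0.08 for Mmp20 and 0.11 for Mmp7. Mmp12, next to Mmp13, missed the threshold, and Mmp13, Mmp3, Mmp10, Mmp1b and Mmp1a passed. Mmp1a, Mmp1b, Mmp7, Mmp10 and Mmp20 were among the dim rows. With IL-4 the only gene of the cluster that passed was Mmp13.

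The AP-1 letters printed above for Mmp13, Mmp3 and Mmp12 were widespread in this cluster. They stood in a window of 8 of its 10 genes, over 12 windows, and Mmp8 and Mmp27 held none. Genes with the element thus included both Mmp13, with the largest change with LPS, and Mmp20, Mmp7 and Mmp12, which missed the threshold.

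**Figure D5:**
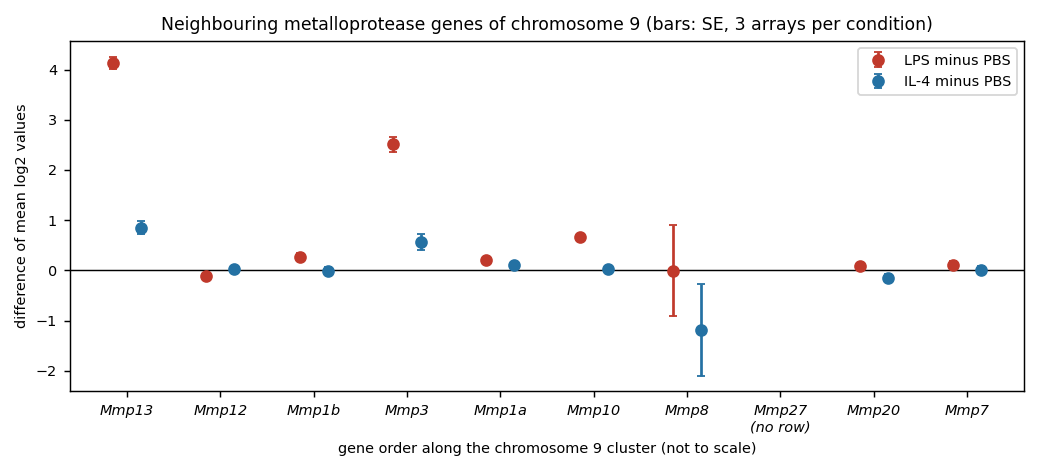
Differences of mean log2 values (vertical axis, bars give the SE, 3 arrays per condition) for LPS minus PBS and IL-4 minus PBS for the metalloprotease genes of chromosome 9 in their order along the chromosome, not to scale. Mmp13 (4.13) and Mmp3 (2.51) stand out with LPS among neighbours between -0.10 and 0.66, and Mmp27 had no row.

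Among the other MMP and TIMP genes, 16 of 18 were measured, and with LPS relative to PBS 6 rose and 2 fell, against 15.4% and 22.4% of all rows. Mmp25, a membrane-anchored protease of leukocytes, had 6.83, 6.53 and 6.70 with LPS and 5.52, 5.86 and 5.25 with PBS, a rise of 1.14 ± 0.15 (adjusted p = 4.48e-04), and Mmp10 (stromelysin-2) rose by 0.66 ± 0.07 (adjusted p = 1.04e-04). Mmp11 (stromelysin-3) fell by 0.88 ± 0.08 (adjusted p = 4.71e-05) and Timp4 fell by 0.54 ± 0.10 (adjusted p = 0.00319). Thus Timp2, Timp3 and Timp4 were lower with LPS than with PBS, and Timp1 was higher. With IL-4 relative to PBS none of the 16 passed in limma with all arrays (1 had an unadjusted p under 0.05), against 3.35% of all rows that rose and 2.05% that fell. Without LPS replicate 3 and PBS replicate 3, 4 of the 16 passed (Mmp16 higher, and Mmp8, Mmp19 and Mmp20 lower), a smaller share than the 30.1% of all rows. Between LPS and IL-4, 6 were higher with LPS and 2 lower, against 21.0% and 25.9% of all rows, led by Mmp25 (1.09 ± 0.15, adjusted p = 5.64e-04) and Mmp11 (-0.74 ± 0.08, adjusted p = 1.17e-04).

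Of 31 ADAM and ADAMTS proteases 29 were measured, and 8 rose and 4 fell with LPS relative to PBS, against 15.4% and 22.4% of all rows. Adamts4, an aggrecanase that cuts the proteoglycans of brain matrix, had 10.16, 10.18 and 10.41 on LPS arrays, 6.98, 6.95 and 6.91 on IL-4 arrays and 6.59, 6.60 and 6.50 on PBS arrays. The LPS arrays were far above the others, and the IL-4 arrays stood above the PBS arrays. With LPS it rose by 3.69 ± 0.07 relative to PBS (adjusted p = 9.46e-09) and with IL-4 by 0.39 ± 0.07 (adjusted p = 0.0192).

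Adam12 rose by 1.37 ± 0.07 with LPS (adjusted p = 1.12e-06) and by 0.72 ± 0.07 with IL-4 (adjusted p = 6.95e-04), and Adamts6 and Adamts14 rose with LPS by 1.10 and 0.95. With IL-4, 5 of the 29 rose relative to PBS and none fell, against 3.35% and 2.05% of all rows, among them Adamts12 (0.52) and Adam19 (0.28). Between LPS and IL-4, 10 were higher with LPS and 9 lower, against 21.0% and 25.9% of all rows. The highest means among those that missed were Adam9 and Adam22 for LPS against PBS (-0.09 and -0.38, although Adam22 passed with the replicate block within the 6 arrays, adjusted p = 0.00301) and Adam9 and Adam17 for IL-4 against PBS (0.10 and 0.04). Adam17, the sheddase of tumour necrosis factor, had 11.15, 11.18 and 10.82 with LPS and 10.77, 10.81 and 10.54 with PBS, a rise of 0.34 ± 0.11 (adjusted p = 0.0345).

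The genes that activate, bind or inhibit metalloproteases were measured for 23 of 25, and with LPS relative to PBS 9 rose and 3 fell, against 15.4% and 22.4% of all rows. Serpinb2, an inhibitor of the plasminogen activators, had 10.60, 10.60 and 11.01 on LPS arrays, 6.03, 6.13 and 6.13 on IL-4 arrays and 4.78, 4.90 and 5.15 on PBS arrays. No condition overlapped another, and LPS minus PBS was 5.79 ± 0.13 (adjusted p = 1.60e-08) and IL-4 minus PBS 1.15 ± 0.13 (adjusted p = 0.00193). Rhbdf2 (iRhom2), which carries ADAM17 to the cell surface, rose by 1.71 with LPS and 0.54 with IL-4, and Cd44, a hyaluronan receptor that binds MMP-9 and MMP-14, rose by 1.41 and 0.50.

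Reck, a membrane-anchored inhibitor of MMP-2, MMP-9 and MMP-14, had 7.45, 7.52 and 7.45 on LPS arrays, 8.99, 8.99 and 8.84 on IL-4 arrays and 8.89, 8.82 and 8.78 on PBS arrays. The LPS arrays lay well below the IL-4 and PBS arrays, with LPS minus PBS at -1.36 ± 0.06 (adjusted p = 5.04e-07) and LPS minus IL-4 at -1.47 ± 0.06 (adjusted p = 3.20e-07), and IL-4 minus PBS at 0.11 ± 0.06 (adjusted p = 0.333). With IL-4 relative to PBS 6 of the 23 rose and none fell, against 3.35% and 2.05% of all rows, led by Itgb3 (1.64 ± 0.18, adjusted p = 0.00149), the integrin subunit that pairs with the product of Itgav, which rose as well. Between LPS and IL-4, 13 were higher with LPS and 6 lower, against 21.0% and 25.9% of all rows. Lcn2, whose product forms a complex with MMP-9 in human neutrophils, had 12.60, 12.69 and 12.70 with LPS, 12.24, 12.17 and 12.34 with IL-4 and 12.50, 12.47 and 11.98 with PBS, and LPS minus PBS (0.35 ± 0.13) missed the threshold (adjusted p = 0.0662).

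Mmp9 and Mmp12 passed in no comparison with all arrays and were left out of this step. Likeness was read by Pearson r over the 9 arrays, among 12739 rows that had a single symbol and lay outside the dim rows. The genes whose values ran most like those of each other member were named. They were Fmnl2 and Sod2 for Mmp13, Rgs16 and Fosl1 for Mmp3, Gbp2 and Ptges for Mmp14, Il1rap and Ccl7 for Timp1, Inpp5a and Pxdn for Mmp2, Ddost and Pctp for Timp2, Cenpn and Garem1 for Timp3, and B230219D22Rik and Aktip for Adam8. The lowest of these r values was 0.988, for Mmp2 with Pxdn. The number of rows with r over 0.95 ran from 71 for Mmp2 to 789 for Mmp14, and the 9 arrays share the split into 3 conditions, so a high r describes the order of the conditions above all.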

How the data were processed

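Total RNA was hybridised to 9 Affymetrix Mouse Exon 1.0 ST arrays. The authors deposited log2 expression values, made with RMA (background correction, quantile normalization and summary of the probes of a gene) in affy, with versions not given in the sources used here. Of 21212 rows, 18786 had 1 symbol, 6 several and 2420 none, and 43 were named through another identifier. Values ran from 2.05 to 13.06 and array medians from 7.20 to 7.39, and the number of arrays limits the precision.

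Groups came from the labels. The 3 comparisons were fitted with limma 3.58.1 (statmod 1.5.0, R 4.3.3) over all 9 arrays, with no block, 6 residual and 2.38 prior degrees of freedom, and the adjustment ran over all rows. Figures and motif searches used Python 3.11.15, pandas 2.3.3 and matplotlib 3.10.9. The 10 genes and all gene lists were chosen with earlier results of these data known. Of each list the 4 called genes with the largest differences and the 2 genes with the highest means that missed the threshold were to be named, and others were named after their values had been seen. The fit was tested on simulated data with independent noise on each array, so that test does not cover the shared deviation of replicate 3.

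Same-numbered LPS and PBS arrays deviated together from their condition means (r of 0.578, 0.651 and 0.800). LPS replicate 1 with PBS replicate 2 (0.542) and LPS replicate 2 with PBS replicate 1 (0.605) were about as high. Replicate 3 stood apart in both conditions, and deviations from a mean of 3 arrays then draw replicates 1 and 2 together. These values therefore cannot show how replicates 1 and 2 of LPS and PBS belong together. The calls with no block use no pairs. Only the replicate block and the differences within a replicate number used the numbers as pairs of LPS and PBS arrays. Same-numbered arrays did not all deviate together for IL-4 with PBS (0.339, -0.255 and 0.075) or LPS with IL-4 (0.289, -0.228 and 0.059). The replicate block was run for these comparisons too, as an alternative that rests on no shown pairing. The alternatives were the methods' t-test, fits to 6 arrays, an eBayes trend, array weights, quantile normalization, subtraction of array medians, leaving out the dimmest 33.3% of rows (7071), the replicate block, and leaving out arrays.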

Additional observations from a re-analysis of the deposited data

How the results depend on the processing

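With LPS relative to PBS, 7 of the 10 genes passed under each of the 19 alternatives, with Mmp12 in place of Adam8 by the methods' t-test. The t-test aside, these alternatives called 31.1% to 53.8% of the rows they tested. With IL-4 relative to PBS the count of 3 became 0 by the methods' t-test. With the replicate block within 6 arrays it was also 0, where 1.35% of all rows passed. It was 8 with array weights, where 39.1% did, and 7 without LPS replicate 3 and PBS replicate 3, where 30.1% did. Without single arrays it was 3 to 5 (5 without PBS replicate 3), where 2.20% to 9.58% of all rows passed. The replicate block over all 9 arrays changed no call among the 10 genes in the 3 comparisons. Between LPS and IL-4 the count of 8 was 8 to 10 over all alternatives and 8 or 9 without single arrays. The t-test aside, 35.9% to 62.8% of the rows tested passed there. The cause of these moves was not tested.

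Signs turned for Mmp9 in LPS minus PBS (-0.35 without LPS replicate 3 and -0.08 without PBS replicate 1, in a range up to 1.78 without PBS replicate 3), for Mmp12 with array medians subtracted (0.0093, -0.0058 and 0.0151 for LPS minus PBS, IL-4 minus PBS and LPS minus IL-4) and for Timp2 in IL-4 minus PBS (0.0180 with quantile normalization and 0.0072 without PBS replicate 2; the lowest value was -0.0607 with array medians subtracted, and -0.0415 when single arrays were left out). None of these differences had passed. Subtracting array medians moved the median of all rows by 0.11 for LPS minus PBS, by -0.04 for IL-4 minus PBS and by 0.15 for LPS minus IL-4, and with it the share of called rows that were higher was 63.9%, 50.3% and 72.1%, against 40.8%, 62.0% and 44.8% as deposited.

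For the other MMP and TIMP genes, LPS against PBS called 8, and 4 without the dim rows, which hold 8 of the 16, and 5 to 7 without single arrays (5 without PBS replicate 2). Of the rows tested it called 37.8%, 53.8% without the dim rows and 31.7% to 41.6% without single arrays. IL-4 against PBS called 0, and 4 with array weights or without LPS replicate 3 and PBS replicate 3. LPS against IL-4 called 8, then 5 with quantile normalization, 4 without the dim rows and 4 to 9 without single arrays (4 without LPS replicate 1 or IL-4 replicate 2, and 5 without IL-4 replicate 3). Of the rows tested it called 46.9%, then 43.4%, 59.8% and 35.9% to 51.7%. IL-4 against PBS called 5.40% of all rows, 39.1% with array weights, 4.30% with medians subtracted and 1.35% with the replicate block within 6 arrays. It called 30.1% without LPS replicate 3 and PBS replicate 3, and 2.20% to 9.58% without single arrays. For ADAM and ADAMTS genes IL-4 against PBS called 5, then 12 with array weights, 1 with the replicate block within 6 arrays, 10 without LPS replicate 3 and PBS replicate 3, and 2 to 7 without single arrays (2 without any one IL-4 array, PBS replicate 1 or PBS replicate 2). For the genes that activate, bind or inhibit metalloproteases it called 6, then 15 with array weights, 3 with medians subtracted, 3 with the replicate block within 6 arrays, 15 without LPS replicate 3 and PBS replicate 3, and 3 to 8 without single arrays (3 without any one IL-4 array).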
